A study of Gallus gallus with 15 samples.

Results

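The breast muscle transcriptomes of 10 Korat chickens (KRC) whose feed held a precursor of carnosine were compared, as 1 pooled group, with those of 5 birds on the same feed without it. The pool joined group B, 5 birds fed β-alanine at 1% of the diet, and group C, 5 birds fed L-histidine at 0.5% of the diet, and group A was the control. These 15 birds were all the birds of the series, and every gene in the table with enough counts was examined, which was 11858 of 17475 genes. All birds were females of 1 slow-growing cross of male Thai indigenous chickens with a breeder line, and the diets were given from week 4 until sampling at week 10. The muscle came from 1 bird in each of 5 cages per group, so a bird stands for its cage and a cage holds 1 diet only. The study's methods mention fasting before slaughter for other birds of the cages and do not mention it for the birds sequenced.

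Carnosine is a dipeptide that skeletal muscle stores, in fast glycolytic fibres above all. Carnosine synthase, the product of CARNS1, joins β-alanine to L-histidine. β-alanine enters cells largely on the taurine carrier SLC6A6, and L-histidine on amino acid carriers of the SLC7 and SLC38 families. Carnosine buffers protons, binds metals and is taken apart by the dipeptidases CNDP1 and CNDP2. The 2 precursors are different molecules with 1 common product, and pooling the diets asks which genes differ whichever precursor was fed.

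The libraries differed between the groups in some measures before any gene was considered. Counted fragments ranged from 10620229 to 14553374 in the control birds and from 13435756 to 15381547 in the supplemented birds. This difference did not pass the limit of 0.05 (exact permutation test over birds, two-sided, adjusted p = 0.0601 over 16 library measures). Muscle fibre markers were by far the most abundant of the marker lists in every bird. The summed level of the 7 muscle fibre markers found in the table, of 12 looked for, was 103460 to 164090 in control birds and 70043 to 126130 in supplemented birds in normalized FPKM, and the largest sum of any other cell type in any bird was 3591, for smooth muscle and pericytes. Levels here are fragments per kilobase of exonic length and library size (FPKM), scaled between birds by the median ratio of their counts and called normalized FPKM. The 10 most abundant genes took 34.8 to 40.7% of the counts in control birds and 24.5 to 36.3% in supplemented birds (exact permutation test over birds, two-sided, p = 0.00966, adjusted p = 0.04 over 16 library measures). Control bird 4 had the lowest depth and the highest share in these genes. The median-ratio scaling factor was 0.678 to 1.02 in control birds and 0.941 to 1.19 in supplemented birds. Genes with at least 10 counts numbered 10319 to 11682 and 11488 to 12298. The 100 most abundant genes took 55.2 to 62.5% and 48.4 to 56.8% of the counts. Each of these measures also passed the limit (exact permutation test over birds, two-sided, adjusted p = 0.04). Of the summed levels of 10 marker lists, those of muscle fibres and of satellite cells came nearest to a difference (exact permutation test over birds, adjusted p = 0.0601 for each), with satellite cell sums of 51.4 to 127 in control and 47.6 to 75.3 in supplemented birds. Genes were split by exonic length into 3 sets of like size, and the set of the shortest genes held 55.2% of the counts in control bird 4 and 53.2% in control bird 3, against 43.6 to 51.4% in the supplemented birds and 46.6 to 49.6% in the other control birds. As a difference between the groups this share did not pass either (exact permutation test over birds, adjusted p = 0.115). By the study's read statistics, control birds 3 and 4 also had the lowest mapping rates and the highest GC contents of all birds. The shift with gene length ran through the whole comparison, since the median log2 fold change, supplemented against control, was -0.17 over the shortest set of genes tested, 0.01 over the middle set and 0.15 over the longest set. Without control birds 3 and 4 the same medians were 0.03, 0.03 and 0.01. Values without these 2 birds are given beside a named gene where its log2 fold change moved by more than 1.5 times, and beside the counts of the gene lists.

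**Figure D1:**
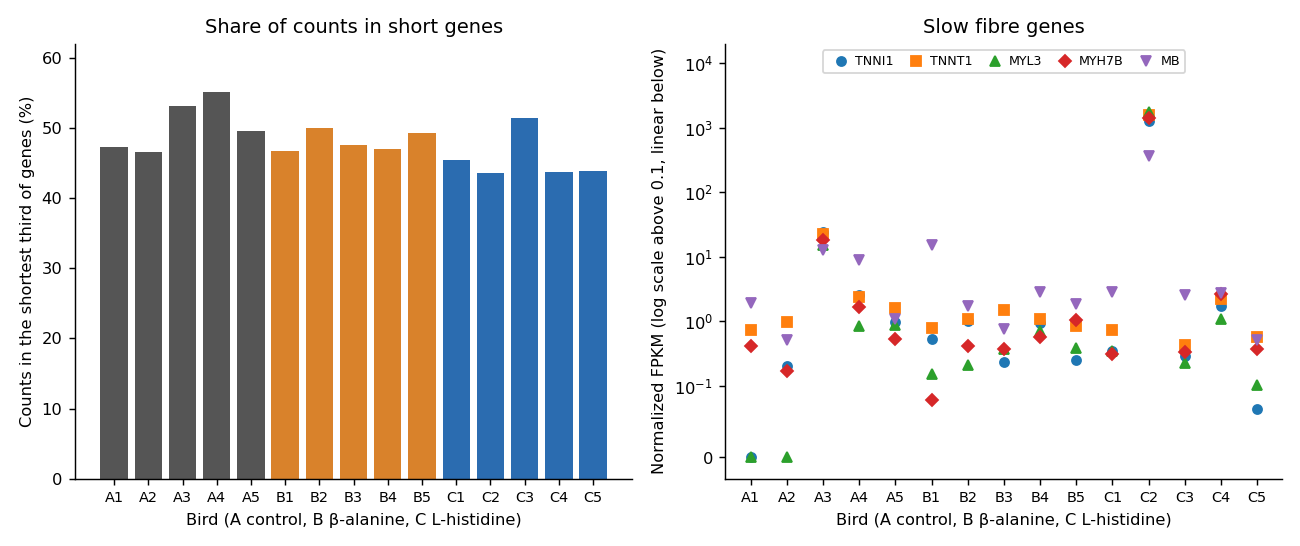
Percentage of counts in the shortest of 3 length sets of genes (left) and normalized FPKM of 5 slow fibre genes (right, log scale above 0.1) in each of the 15 birds, with control birds A1 to A5, β-alanine birds B1 to B5 and L-histidine birds C1 to C5. Control birds 3 and 4 hold the highest short-gene shares, 53.2 and 55.2%, and L-histidine bird 2 stands apart in the slow fibre genes.

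L-histidine bird 2 stood apart in a different way. Its sample held many transcripts of slow, oxidative fibres that the other birds nearly lacked. Not every gene listed here as a slow fibre gene went this way, and TNNC1, MYBPH and CASQ2 were abundant in all birds. In normalized FPKM, TNNC1 was at 5093 in this bird and at 6119 to 19150 in the others. MYBPH was at 163 against 264 to 1704, and CASQ2 at 784 against 745 to 1904. The slow troponin genes TNNI1 and TNNT1 were at 1285 and 1565 normalized FPKM in this bird and at most at 24.5 and 22.8 in any other, the highest of the others being control bird 3. The slow light chain gene MYL3 was at 1741 against at most 15.0, and the slow heavy chain gene MYH7B at 1410 against at most 18.2. Of 22 slow fibre genes examined, 17 were more than 10-fold higher in this bird than in every other bird. The 22 include 5 genes added after their values were seen, and all 5 are among the 17. Over all 11858 genes tested, 42 were more than 10-fold higher in this bird than in every other. The median log2 fold change of the slow fibre list, 17 genes, was 3.04 with this bird and -0.48 without it.

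A gene was called where the edgeR quasi-likelihood test gave it an adjusted p under 0.05 (Benjamini-Hochberg, 11858 genes) and the groups differed by 1.5-fold or more, and 4 genes met both limits. ASB2 rose and KY, GRIP2 and PPM1K fell, and in each of the 4 no supplemented bird overlapped with a control bird. The background is correspondingly small, 0.00843% of genes tested for higher and 0.0253% for lower. At an unadjusted p under 0.05, 7.43% of genes tested were higher (881 genes) and 11.5% were lower (1368 genes), against 593 genes in both directions together if no gene differed. The excess on the lower side depended on the birds and the scaling, with 379 higher and 350 lower without control birds 3 and 4, and 2196 higher and 297 lower when birds were scaled by total count alone. DESeq2, the tool of the study's own comparisons, called 121 genes higher and 152 lower on the same counts and thresholds, the 4 genes included.

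ASB2 encodes the substrate-binding part of a cullin ubiquitin ligase that in mammals marks filamins and other muscle proteins for breakdown. On chromosome 5 (GRCg6a, 45552811 to 45586074, minus strand), its level was 3.64, 4.64, 6.96, 3.21 and 3.56 normalized FPKM in control birds 1 to 5. In the supplemented birds the lowest was 7.37, the median 23.3 and the highest 54.7. The lowest supplemented bird, fed β-alanine, lay just above the highest control bird, and the supplemented birds spread over a wide range of levels. The mean was 4.40 ± 1.52 (SD, n = 5) in control and 25.9 ± 15.0 (SD, n = 10) in supplemented birds, a log2 fold change of 2.55 (SE 0.43, edgeR adjusted p = 0.0463). Against control the log2 fold change was 2.45 (SE 0.47) in the β-alanine birds and 2.65 (SE 0.48) in the L-histidine birds.

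KY encodes a protein of the Z-disc, the anchor of the thin filaments, and mice that lack it lose muscle strength and develop a curved spine. The gene lies on chromosome 9 (3857749 to 3879247, minus strand). KY was at 71.7, 54.1, 62.5, 128 and 61.5 normalized FPKM in control birds 1 to 5, and at 16.1 to 39.3 with a median of 23.9 in supplemented birds. Control bird 4 was the highest, and the other 4 control birds lay close together, all above the supplemented birds. The means of 75.6 ± 29.97 (SD, n = 5) and 25.6 ± 7.77 (SD, n = 10) gave a log2 fold change of -1.56 (SE 0.22, edgeR adjusted p = 0.0191). The values against control were -1.64 (SE 0.28) with β-alanine and -1.49 (SE 0.28) with L-histidine.

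GRIP2 encodes a scaffold protein with PDZ domains, known from glutamate receptor anchoring in neurons. It lies on chromosome 12 (11415545 to 11631518, minus strand), and the nearest of the genes named here is SLC6A6, which ends at 11412333. Whether reads were counted by strand is not stated. The level of GRIP2 was low in all birds, 1.89, 2.03, 1.88, 2.603 and 2.13 normalized FPKM in control birds 1 to 5 and 0.656 to 1.40 with a median of 0.822 in supplemented birds. All 10 supplemented birds were below all control birds. The log2 fold change was -1.20 (SE 0.19, edgeR adjusted p = 0.0439), with -1.31 (SE 0.23) for β-alanine and -1.10 (SE 0.23) for L-histidine.

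PPM1K encodes the mitochondrial phosphatase that switches on the branched-chain ketoacid dehydrogenase, the committed step in the breakdown of leucine, isoleucine and valine. It lies on chromosome 4 (46991647 to 47009784, minus strand). The control birds were at 21.1, 11.5, 15.4, 18.2 and 20.1 normalized FPKM, and the supplemented birds at 5.29 to 11.3 with a median of 8.23. Control bird 2 was the lowest of its group and nearly met the highest supplemented bird. The log2 fold change was -1.13 (SE 0.19, edgeR adjusted p = 0.0448), and it was -1.13 (SE 0.23) against control in each diet.

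**Figure D2:**
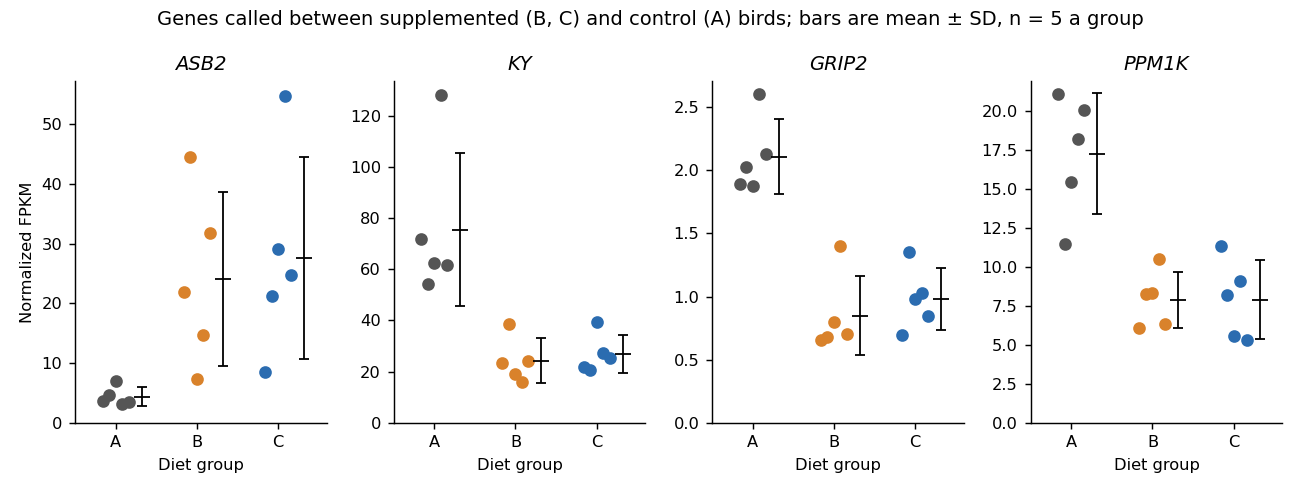
Normalized FPKM of the 4 called genes in each bird, by diet group (A control, B β-alanine, C L-histidine), with the mean and SD of 5 birds beside the points. ASB2 was higher in all 10 supplemented birds (7.37 to 54.7 against 3.21 to 6.96), and KY, GRIP2 and PPM1K were lower in all 10.

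None of the 4 calls was kept when control birds 3 and 4 were both left out, a fit with fewer control birds and so less power. The log2 fold changes were then 2.71 for ASB2, -1.28 for KY, -1.14 for GRIP2 and -1.15 for PPM1K, with edgeR adjusted p-values of 0.234, 0.133, 0.217 and 0.207. With 1 bird left out at a time, KY was called in 10 of 15 fits, ASB2 in 7 and GRIP2 and PPM1K in 6 each, and the largest adjusted p was 0.0816, 0.156, 0.137 and 0.137 in that order, each without control bird 4. No gene was called in 5 of these fits, those without control bird 1 or 4, β-alanine bird 1 or 5, or L-histidine bird 5. Leaving out L-histidine bird 2 kept all 4. With the trend with gene length removed from each library, KY, GRIP2 and PPM1K were called (adjusted p = 0.00753, 0.00753 and 0.00941) and ASB2 was not (0.0594).

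A further 11 genes shared the next adjusted p, 0.0569, and 24 genes in all were under 0.1. They are given as values, with no call. The genes described from here on are the 15 higher and the 15 lower with the smallest p for which all 10 supplemented birds lay on 1 side of the control mean, the 4 called genes among them. They were picked on these p-values and sides, so their agreement between the diets or between tools is no further evidence.

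Among the lower genes without a call, CNTFR had the smallest p. It encodes the binding subunit of the ciliary neurotrophic factor receptor, which muscle carries. CNTFR was at 5.99, 5.02, 5.19, 7.02 and 5.45 normalized FPKM in control birds 1 to 5 and at 1.39 to 4.05 with a median of 2.598 in supplemented birds. The groups did not overlap, and the log2 fold change was -1.14 (SE 0.20, edgeR adjusted p = 0.0569). PIK3R6, a regulatory subunit of phosphoinositide 3-kinase gamma, was at 9.04 to 20.6 in control and 2.80 to 8.42 in supplemented birds (log2 fold change -1.17, SE 0.23, or -0.74 without control birds 3 and 4). VASN encodes vasorin, a membrane protein that binds transforming growth factor beta, and was at 1.43 to 2.37 and 0.693 to 1.28 (-0.90, SE 0.17). Neither of these overlapped between the groups, and both shared the adjusted p of CNTFR.

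The other lower genes of the 15 act in several places. Their edgeR adjusted p was 0.0569, except for MARCKSL1, HEG1 and LOC107051531, where it was 0.0766. NMRK2, the muscle form of nicotinamide riboside kinase, which makes a precursor of NAD, was at 138 to 370 in control and 62.1 to 148 in supplemented birds (log2 fold change -1.22, SE 0.23). SCN2B, a beta subunit of voltage-gated sodium channels, was at 14.4 to 29.2 and 4.47 to 15.7 (-1.29, SE 0.25). THBD, the endothelial receptor of thrombin, was at 4.196 to 14.01 and 2.73 to 5.62 (-1.33, SE 0.25). In these 3 genes the ranges overlapped, and the fold changes without control birds 3 and 4 were smaller, -0.76, -1.03 and -0.88. PXDNL, related to the peroxidasins of the extracellular matrix, was at 1.11, 0.937, 0.455, 0.735 and 0.968 in control birds 1 to 5 and at 0.264 to 0.531 in supplemented birds, and only control bird 3 lay among the supplemented birds. Its log2 fold change was -1.05 (SE 0.19, edgeR adjusted p = 0.0569) in all birds and -1.30 without control birds 3 and 4, where it was the 1 gene called. INO80E, a subunit of a chromatin remodelling complex, gave -1.01 (SE 0.19), MARCKSL1, a membrane-bound actin regulator, -1.01 (SE 0.20), or -0.61 without control birds 3 and 4, and HEG1, a receptor of endothelial junctions, -0.50 (SE 0.10), all without overlap. LOC100859284 and LOC107051531 are named by number only in the table and gave -1.31 (SE 0.25) and -1.17 (SE 0.24), of which the second was -0.52 without control birds 3 and 4.

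Among the higher genes, PDE10A and IRF2 came next to ASB2. PDE10A encodes a phosphodiesterase that breaks down cyclic AMP and cyclic GMP. It was at 3.89, 2.38, 2.12, 3.73 and 2.62 normalized FPKM in control birds 1 to 5, and at 4.16 to 13.0 with a median of 7.95 in supplemented birds. The groups did not overlap, and the log2 fold change was 1.45 (SE 0.28, edgeR adjusted p = 0.0569), the same to 2 decimals without control birds 3 and 4. IRF2, a transcription factor of the interferon pathway, was at 7.30, 7.75, 5.76, 7.10 and 7.58 in control birds and at 9.53 to 13.9 with a median of 10.6 in supplemented birds. Its ranges were the furthest apart of the higher genes, with the lowest supplemented bird 1.23-fold above the highest control bird, although the log2 fold change was only 0.62 (SE 0.12, edgeR adjusted p = 0.0569).

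Enzymes are described next, out of the order of p. CTSV, a lysosomal cysteine protease, was at 26.9 to 53.2 in control and 53.0 to 127 in supplemented birds (log2 fold change 0.996, SE 0.21). PLA2G15, a phospholipase of the lysosome, was at 13.7 to 45.1 and 28.9 to 103 (1.34, SE 0.29). LPIN1 encodes lipin 1, a phosphatidate phosphatase that also acts with transcription factors of fat oxidation, and was at 3.39 to 5.88 and 6.38 to 25.3 (1.26, SE 0.29). PANK1, which starts the synthesis of coenzyme A from pantothenate, was at 0.547 to 1.76 and 1.94 to 4.79 (1.18, SE 0.26). LPIN1 and PANK1 did not overlap between the groups, while CTSV and PLA2G15 did. Adjusted p-values from edgeR were 0.0766 for CTSV, 0.101 for PLA2G15, 0.115 for PANK1 and 0.118 for LPIN1.

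The remaining higher genes are signals, regulators and adaptors. TNFSF10, the death receptor ligand TRAIL, gave a log2 fold change of 1.07 (SE 0.21), and BMP4, a bone morphogenetic protein, 0.75 (SE 0.17). The repressor NFIL3, which acts at the output of the circadian clock, gave 1.46 (SE 0.33), and the transcriptional cofactor TRIM24 gave 0.82 (SE 0.19). SPSB1, a SOCS box adaptor of ubiquitin ligases like ASB2, was at 6.998 to 16.5 in control and 13.3 to 33.2 in supplemented birds (1.03, SE 0.23). PPFIBP2, of the liprin scaffold family, gave 1.01 (SE 0.20) and MPHOSPH9, a centriole protein, 1.51 (SE 0.31), both without overlap, and LRCH1 gave 0.89 (SE 0.20). MPHOSPH9 had 3 to 39 counted fragments in control birds and 42 to 100 in supplemented birds.

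**Figure D3:**
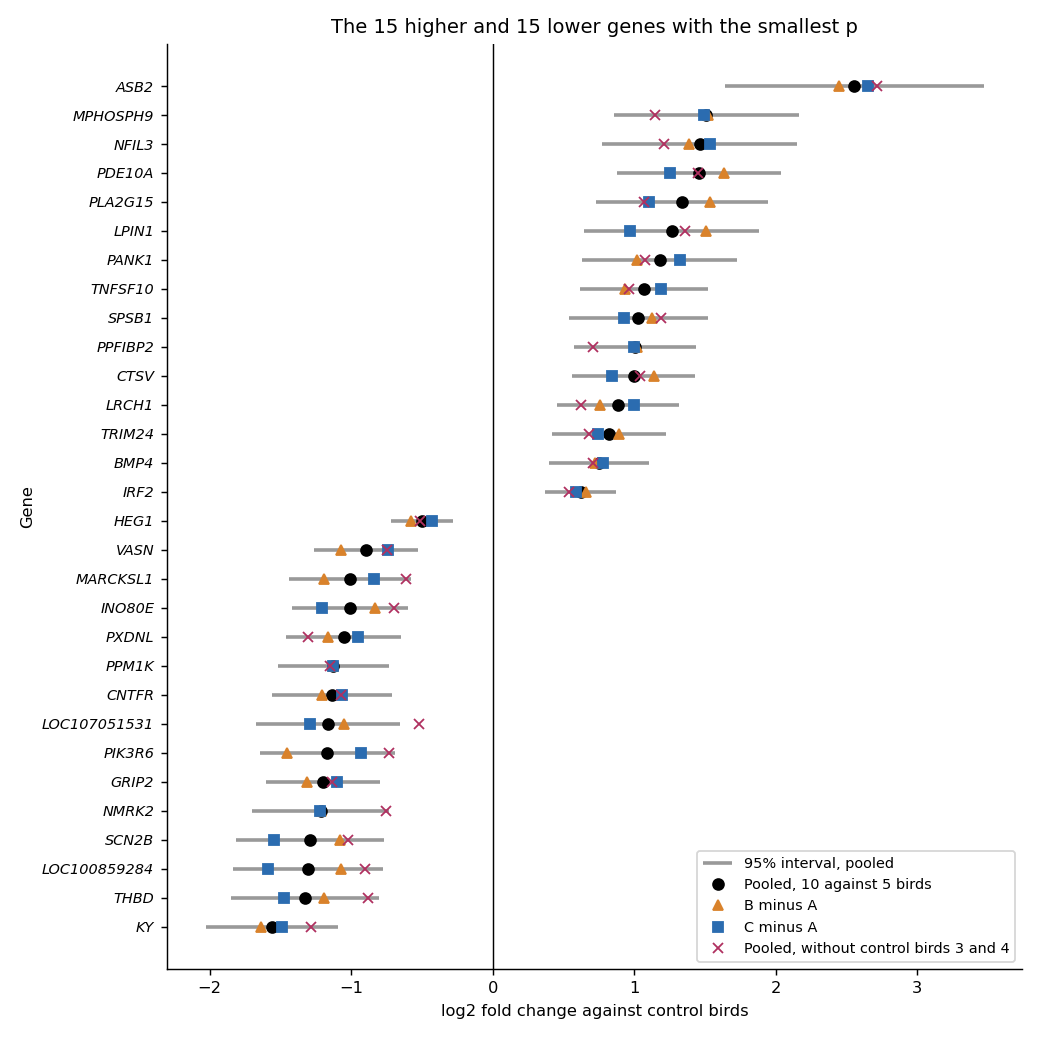
Log2 fold change against control of the 15 higher and 15 lower genes with the smallest p, as the pooled estimate with its 95% interval, for each diet, and for the pool without control birds 3 and 4. The choice of genes places both diets on 1 side of 0. Without the 2 control birds LOC107051531 moves from -1.17 to -0.52, while PDE10A stays at 1.45.

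In 40 genes the 10 supplemented birds and the 5 control birds did not overlap at all. In 16 of them, 0.135% of genes tested, every supplemented bird was above every control bird, and in 24, or 0.202%, every one was below. Edge cases were common: in CEP70 the highest control bird was at 2.836 and the lowest supplemented bird at 2.840, and in EXOC6, FGL1L and EPB41L5 the groups came as close. The widest gaps were those of KY and GRIP2, where the lowest control bird was 1.38 and 1.34 times the highest supplemented bird. DESeq2 called 28 of the 40. The count was 130 without control birds 3 and 4 (72 above and 58 below), as 3 control birds are easier to clear than 5. It was 64 when birds were scaled by total count alone (55 above and 9 below), which shifted the median of all genes to 0.25, so more genes lay below than above only with the main scaling and all birds or with TMM.

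Further genes of this set were picked for naming after their values were seen. IGF1R, the receptor of insulin-like growth factor 1, was at 0.714 to 1.86 in control and 1.899 to 2.98 in supplemented birds (log2 fold change 0.86, SE 0.22, edgeR adjusted p = 0.129, 0.50 without control birds 3 and 4). IGF2BP3, which binds the mRNA of insulin-like growth factor 2, was at 0.286 to 0.486 and 0.532 to 1.30 (1.11, SE 0.27). HBP1, a repressor of cell cycle entry, was at 7.75 to 13.2 and 13.4 to 25.2 (0.56, SE 0.16). On the lower side G3BP1, which nucleates stress granules, was at 69.6 to 149 and 39.8 to 67.4 (-0.81, SE 0.18, or -0.53 without control birds 3 and 4), and UBA3, the catalytic subunit of the enzyme that activates NEDD8, at 21.1 to 23.0 and 15.5 to 20.6 (-0.26, SE 0.10). ELP4, of the Elongator complex that modifies transfer RNA, gave -0.51 (SE 0.16). Cullin ligases, of which ASB2 is a part, are switched on by NEDD8. A link of UBA3 (edgeR adjusted p = 0.198) with ASB2 was not tested.

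ABCG1, a cholesterol exporter, was at 0.0466 to 0.104 in control birds and at 0.116 to 1.66 in supplemented birds with a median of 0.156, and its highest value was that of L-histidine bird 2. Its log2 fold change was 2.06 (SE 0.71) with that bird and 1.14 without it. ABCG1 had 5 to 12 counted fragments in control birds. CAPNS2, a calpain small subunit, was at 0.291 to 0.621 and 0.699 to 1.89 (1.31, SE 0.34). HIST2H3D, 1 of many similar histone H3 genes, was at 0.241 to 1.30 in control birds and at 0 to 0.234 in supplemented birds (-1.98, SE 0.56, or -1.29 without control birds 3 and 4), and poly(A) selection recovers histone mRNA poorly. HIST2H3D had only 4 to 11 counted fragments in control birds and 0 to 4 in supplemented birds. Birds with 4 fragments were found in both groups, so the lack of overlap arose with the scaling. LOC107056270 gave a log2 fold change of -1.68 (SE 0.40) from 1.69 to 5.48 and 0.147 to 1.498. NRGN, a calmodulin-binding protein known from neurons, was at 130 to 278 and 19.9 to 129 (-1.12, SE 0.28), and AGMAT, annotated as an agmatinase, at 27.7 to 62.2 and 17.5 to 27.3 (-0.68, SE 0.18, or -0.26 without control birds 3 and 4).

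Long genes were more frequent on the higher side. The median exonic length was 4752 bases for the 16 genes above, 2934 for the 24 below and 3110 for all genes tested, and 12 of the 16 but 10 of the 24 were longer than that last median. This is the direction of the length shift described above, and its part in the result was not tested.

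**Figure D4:**
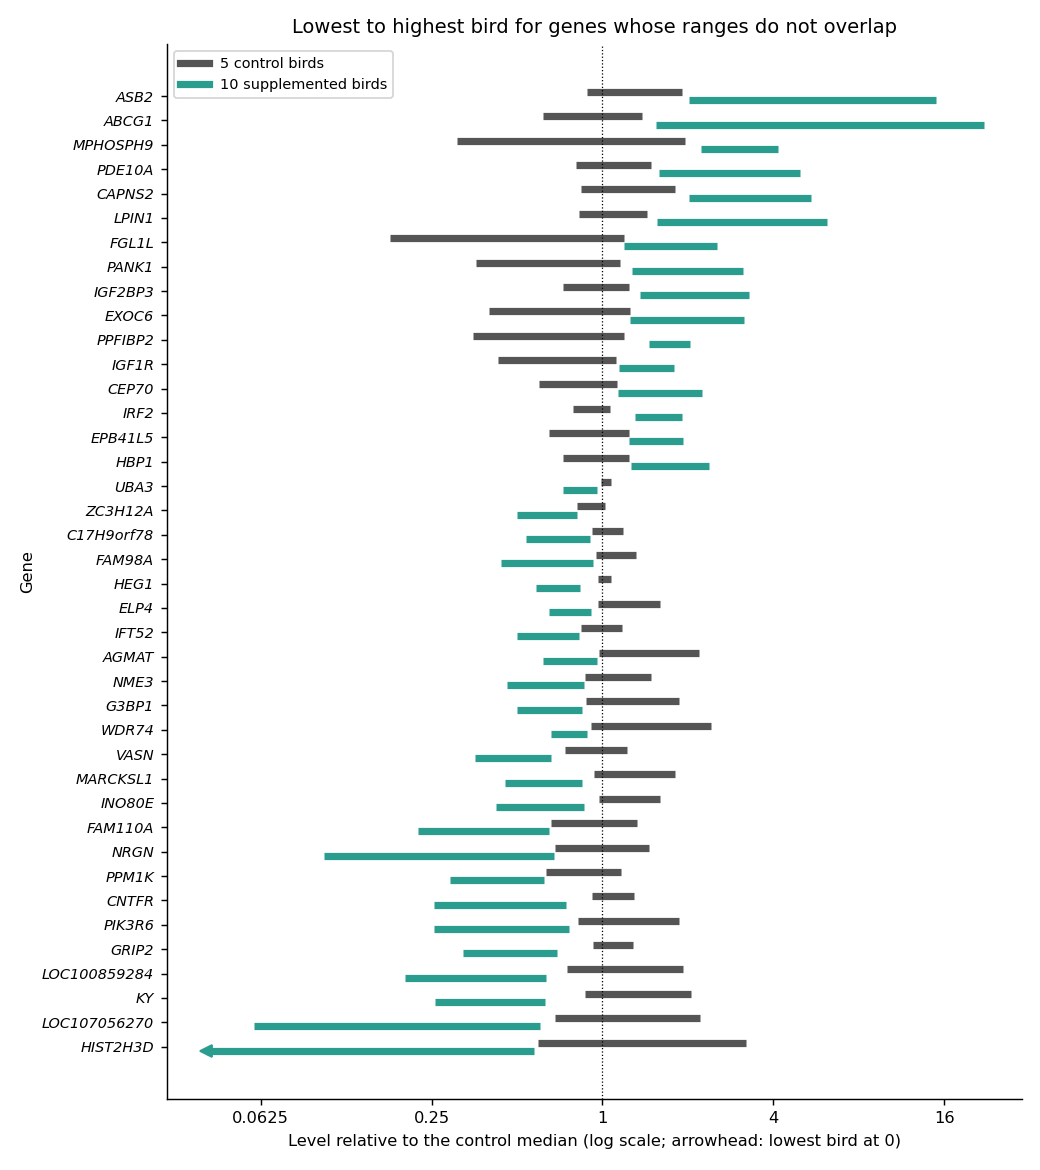
Lowest to highest bird of the 5 control (grey) and the 10 supplemented birds (green) relative to the control median on a log scale, for the 40 genes whose ranges do not overlap, 16 above and 24 below. The arrowhead marks HIST2H3D, whose lowest supplemented bird was at 0, and most ranges nearly touch.

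The carnosine genes themselves did not pass the edgeR test. CARNS1 lies on chromosome 5 (205432 to 212376, plus strand) and was at 105, 93.7, 116, 75.2 and 76.2 normalized FPKM in control birds 1 to 5, and at 51.2 to 110 with a median of 76.0 in supplemented birds. The groups overlapped widely, with a log2 fold change of -0.22 (SE 0.19, 95% interval -0.62 to 0.19, edgeR adjusted p = 0.534), and -0.12 without control bird 3. Of the 11 enzymes of carnosine, β-alanine and histidine metabolism that could be tested, 0 were called. At an unadjusted p under 0.05, 0 were higher and 2 (18.2%) lower, against 7.43 and 11.5% of all genes. Without control birds 3 and 4, 1 was higher and 2 were lower. In the fit with all birds GADL1 was the first of the 2 lower enzymes. It encodes a decarboxylase that in mice makes β-alanine from aspartate. GADL1 was at 86.5, 196, 32.7, 110 and 97.8 in control birds 1 to 5 and at 17.0 to 69.2 with a median of 39.0 in supplemented birds. Only control bird 3 lay among the supplemented birds, and the log2 fold change was -1.32 (SE 0.35, edgeR adjusted p = 0.129), or -1.59 without control birds 3 and 4. With DESeq2, GADL1 passed both limits (log2 fold change -1.32, DESeq2 adjusted p = 0.0187), and no other of the 11 enzymes did. The GADL1 value against control was -1.30 (SE 0.44) with β-alanine and -1.34 (SE 0.44) with L-histidine. AGXT2, a mitochondrial aminotransferase that accepts β-alanine, was at 0.713, 2.95, 1.14, 2.49 and 4.92 in control birds and at 0.705 to 2.48 in supplemented birds (-0.83, SE 0.35, edgeR adjusted p = 0.222), and its log2 fold change was -0.41 without control bird 5. UPB1, which releases β-alanine at the end of pyrimidine breakdown, gave 0.86 (SE 0.49), and the dipeptidase gene CNDP2 -0.15 (SE 0.14).

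Of the 13 carriers tested, 0 were called and 3, all lower, had an unadjusted p under 0.05. These were SLC7A5, the carrier of large neutral amino acids with histidine among them (log2 fold change -0.81, SE 0.25), SLC38A4 (-1.20, SE 0.39) and SLC38A3, a carrier of glutamine and histidine (-0.62, SE 0.28), with edgeR adjusted p-values of 0.142, 0.149 and 0.248. Without control birds 3 and 4 they were -0.45, -1.31 and -0.16, and 1 carrier was lower at the same limit. Control bird 4 alone moved SLC7A5 to -0.43 and SLC38A3 to -0.27 when left out. SLC6A6 was at 1.46, 1.28, 1.04, 1.01 and 1.74 in control birds and at 0.834 to 13.7 with a median of 1.60 in supplemented birds. L-histidine bird 2 alone held the highest value, and the log2 fold change of 1.11 (SE 0.57, edgeR adjusted p = 0.295) was 0.30 without it.

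Genes known to respond to fasting through FoxO transcription factors were more often higher than lower. FoxO factors are held out of the nucleus by insulin signalling and switch on genes of protein breakdown, fat use and growth arrest when insulin is low. This list, like every other gene and marker list before and after it, was chosen with earlier results on these birds known. The directions and counts of these lists therefore have no independent support here. Of 31 genes tested, 0 were called, and among those with an unadjusted p under 0.05 there were 12 on the higher and 1 on the lower side, against 7.43 and 11.5% of all genes. The median log2 fold change was 0.44, against 0.01 over all genes. Without control birds 3 and 4 the count was 10 higher and 1 lower and the median 0.47, and without L-histidine bird 2 it was 13 and 1 with 0.43. The leading members were TNFSF10 and LPIN1, given above, and CCNG2, a cyclin of cell cycle arrest, which was at 4.63 to 10.2 in control and 8.58 to 14.4 in supplemented birds (log2 fold change 0.73, SE 0.17, edgeR adjusted p = 0.118).

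The list of insulin, phosphoinositide 3-kinase and mTOR genes gave 12 higher and 2 lower of 30 tested by the same limit, against 7.43 and 11.5% of all genes, with a median of 0.22. The member of smallest p was PIK3R6, given above, which is on the lower side. IRS2, the insulin receptor substrate that FoxO factors also control in mammals, was at 1.68, 0.978, 4.33, 1.35 and 1.17 in control birds and at 2.80 to 9.24 with a median of 4.24 in supplemented birds. Only control bird 3 was as high as supplemented birds, and the log2 fold change was 1.51 (SE 0.38, edgeR adjusted p = 0.129), or 2.10 without control birds 3 and 4. TSC1, a brake on mTOR, gave 0.66 (SE 0.16) and 0.44 without these 2 birds. The count for the list was 6 higher and 1 lower without them, when 379 and 350 of all 11858 genes passed the same limit. The median exonic length of this list was 6287.5 bases, against 3110 for all genes tested. Of the 3953 longest genes, 490 were higher and 178 lower at that limit with all birds. The part of gene length in the count was not tested.

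Ubiquitin ligase genes of muscle lay on both sides. The counts of this and the next 2 lists stand beside 7.43% higher and 11.5% lower over all genes. Of 35 tested, 1 was called, ASB2, and an unadjusted p under 0.05 came with 9 on the higher and 6 on the lower side, with a median of 0.00, and 6 and 4 without control birds 3 and 4. SPSB1 was among the higher, and TRIM7, a ligase that binds glycogenin, among the lower (log2 fold change -0.99, SE 0.24, edgeR adjusted p = 0.129). Autophagy and lysosome genes gave 9 higher and 1 lower of 38, led by CTSV and PLA2G15 and followed by NPC1, the lysosomal cholesterol exporter, which was at 5.49 to 9.15 and 6.80 to 12.9 (0.66, SE 0.18). That list was 5 higher and 0 lower without control birds 3 and 4. Cyclic nucleotide genes gave 5 higher and 0 lower of 21, with PDE10A, PDE4D (0.73, SE 0.20) and CREB5 (1.61, SE 0.57) in front, and 2 and 0 without these birds. The median exonic length of the cyclic nucleotide list was 6788 bases, against 3110 for all genes tested. Of the 3953 longest genes, 490 were higher and 178 lower with all birds.

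Clock genes gave 6 higher and 5 lower of 22, against 7.43 and 11.5% of all genes, and 3 and 2 without control birds 3 and 4. NFIL3 and CRY1, both repressors, were higher, the second with a log2 fold change of 0.77 (SE 0.20), and CIART, a repressor of CLOCK and BMAL1, was lower (-1.04, SE 0.26), with edgeR adjusted p-values of 0.116, 0.129 and 0.129. Without these birds CRY1 was 0.51 and CIART -0.65. The hours of sampling are not given in the sources used here. Among activity and immediate early genes 3 were higher and 6 lower of 34, and 0 and 3 without control birds 3 and 4, with NR4A1 (-0.87, SE 0.20), SOCS3 (-2.02, SE 0.51) and SLC25A25, a mitochondrial ATP carrier (-1.49, SE 0.40), the first. SOCS3 was at 14.4, 2.46, 41.5, 2.38 and 6.64 in control birds and at 1.14 to 5.99 in supplemented birds, so that only control birds 1, 3 and 5 lay above the supplemented birds. Its log2 fold change was -0.96 without control bird 3 and -1.23 without control birds 3 and 4, and that of NR4A1 was -0.51 without both.

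In the lists of energy metabolism and of abundant short genes, the values turned on control birds 3 and 4. At an unadjusted p under 0.05, 7.43% of all genes were higher and 11.5% lower, and of the 3955 shortest genes 140 were higher and 789 lower. Of 51 subunits of the mitochondrial respiratory complexes, 0 were called, and an unadjusted p under 0.05 was found for 33 on the lower and 0 on the higher side, and the median log2 fold change was -0.45. Without control birds 3 and 4 the counts were 0 and 0 and the median was -0.07, while the counts over all 11858 genes were 379 higher and 350 lower, also smaller than with all birds. NDUFC2, of complex I, was at 62.6, 84.9, 114, 131 and 62.2 in control birds and at 46.4 to 73.8 in supplemented birds, and SDHC, of complex II, at 53.6, 50.6, 101, 125 and 56.8 against 35.7 to 58.7. In both genes birds 3 and 4 were the highest controls and the other control birds were at or near the supplemented range. The log2 fold changes of -0.62 (SE 0.17) and -0.68 (SE 0.20) were -0.24 and -0.15 without these 2 birds, and SDHC was -0.44 without control bird 4 alone. The median exonic length of this list was 877 bases, against 3110 for all genes tested.

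Glycolysis genes gave 0 higher and 13 lower of 30 with a median of -0.41, and 0 higher and 2 lower with -0.14 without these birds. G6PC3, a glucose 6-phosphatase, gave a log2 fold change of -1.02 (SE 0.22, edgeR adjusted p = 0.0919), PGAM1, phosphoglycerate mutase, -0.87 (SE 0.21), and PHKA1, of phosphorylase kinase, -0.68 (SE 0.21), which were -0.56, -0.48 and -0.24 without them. Ribosomal protein genes gave 0 higher and 12 lower of 68 and proteasome genes 0 and 6 of 33, with medians of -0.22 and -0.29. Their shares on the lower side, 17.6 and 18.2%, stand beside 11.5% of all genes and 789 of the 3955 shortest genes. Without control birds 3 and 4 the counts of both lists were 0 and 0 with medians of 0.13 and 0.04, opposite in sign. Fast fibre genes gave 1 higher and 7 lower of 17 with a median of -0.33 and 0 and 0 with -0.19. MYH1E, a fast myosin heavy chain whose near-identical neighbours may share its reads, was at 6781 to 11420 in control and 3272 to 8033 in supplemented birds (-0.57, SE 0.17, edgeR adjusted p = 0.142). Since these samples are pieces of muscle, fewer cells of a type and less RNA per cell cannot be told apart.

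Genes that regulate the use of fuel are the last of this group. In the list on pyruvate dehydrogenase and branched-chain amino acids, 25 genes, PPM1K was called. By unadjusted p under 0.05 there were 2 higher and 6 lower genes, against 7.43 and 11.5% of all genes, and 0 and 3 without control birds 3 and 4. PDP1, the phosphatase that switches on pyruvate dehydrogenase, gave -0.86 (SE 0.23), and PDHX, a structural part of that complex, -0.51 (SE 0.15), with edgeR adjusted p-values of 0.129 and 0.141. Without control birds 3 and 4 these were -0.83 and -0.51, and PPM1K was -1.15. In the fatty acid oxidation list, 4 were higher and 6 lower of 39, and 0 and 3 without control birds 3 and 4. The 2 subunits of the energy sensor AMPK among the first, PRKAB2 (-0.63, SE 0.16) and PRKAA2 (-0.84, SE 0.23), and PERM1, a muscle regulator of oxidative genes (-1.05, SE 0.29), were -0.45, -0.75 and -1.21 without these birds.

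**Figure D5:**
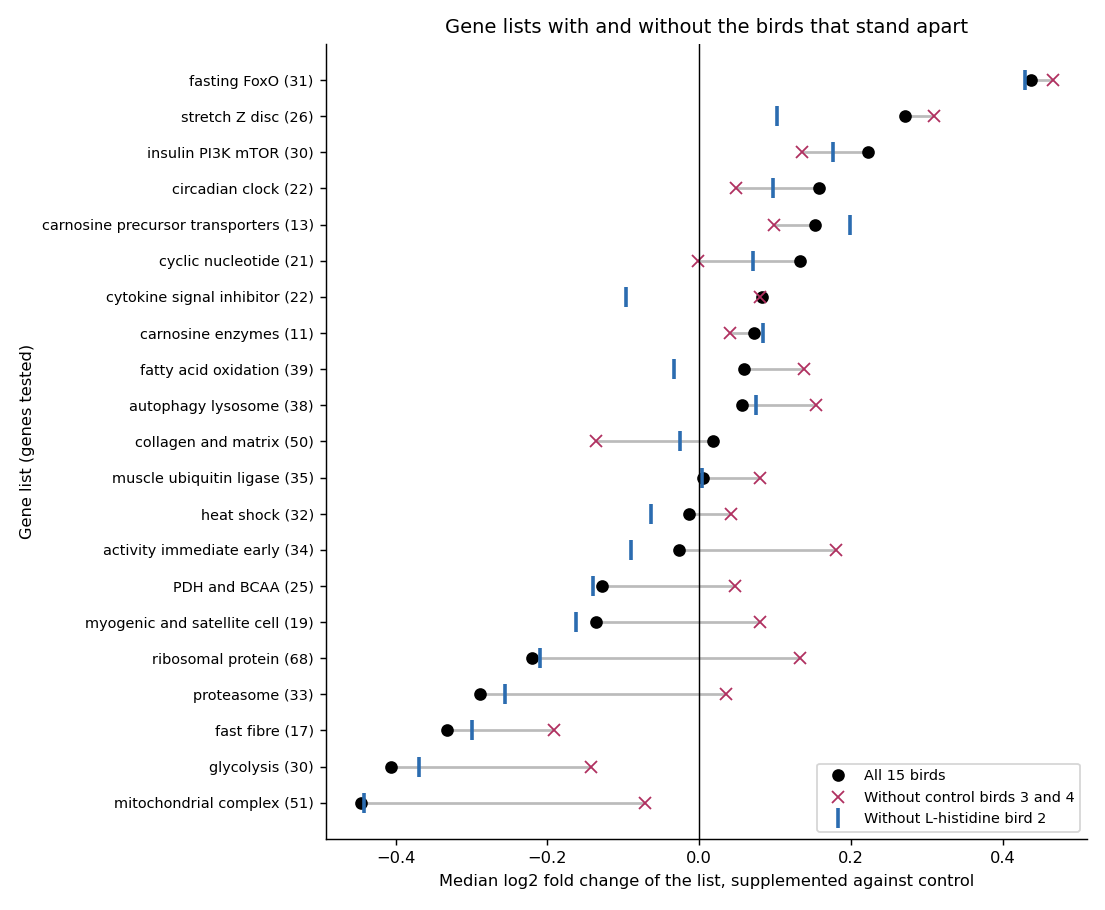
Median log2 fold change, supplemented against control, of 21 gene lists (genes tested in brackets, slow fibre list left out) in all birds, without control birds 3 and 4, and without L-histidine bird 2. The mitochondrial list moves from -0.45 to -0.07 without the 2 control birds, and the fasting and FoxO list stays at 0.44 and 0.47.

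The other lists were mixed or small. Their counts are at an unadjusted p under 0.05, where 7.43% of all genes were higher and 11.5% lower. Over all 11858 genes, 379 were higher and 350 lower without control birds 3 and 4. Without L-histidine bird 2, 764 were higher and 1267 lower. Stretch and Z-disc genes gave 8 higher and 3 lower of 26 with KY as the 1 call, with 2 and 3 without L-histidine bird 2, whose slow fibre genes CSRP3 and ANKRD2 are on this list, and with 2 and 1 without control birds 3 and 4. Slow fibre genes gave 4 higher and 3 lower of 17, with 1 and 7 without that L-histidine bird and 0 and 0 without the 2 control birds. Muscle regulatory and satellite cell genes gave 2 and 2 of 19, or 2 and 1 without the 2 control birds, with MYOD1, a master factor of muscle identity, at 30.9 to 124 in control and 75.4 to 276 in supplemented birds (log2 fold change 1.04, SE 0.34, edgeR adjusted p = 0.149). Collagen and matrix genes gave 1 higher and 6 lower of 50, a share on the lower side near the 11.5% of all genes, heat shock genes 3 and 7 of 32, and inhibitors of cytokine signals 4 and 2 of 22. Without control birds 3 and 4 these counts were 1 and 3, 0 and 2, and 1 and 3. None of the counts of the 22 lists was tested against other genes.

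The 2 diets were also set against each other directly, because a pooled difference can hide a gene that 1 precursor moves and the other does not. Of 11858 genes, 0 were called between L-histidine and β-alanine birds (0% of genes tested, edgeR, smallest adjusted p = 0.958), DESeq2 called 0 as well, and 4.02% were under an unadjusted p of 0.05 (477 genes). The values of each diet against control given above share the same 5 control birds and are not independent. The choice of the 30 leading genes and of the 40 without overlap favours genes in which the diets agree, so their differences between the diets are given only as values. Of these genes, only ABCG1 was under an unadjusted p of 0.05 between the diets. The interval of the difference was wide for ASB2, a log2 difference of 0.20 (95% interval -0.74 to 1.14), and narrower for PPM1K, 0.00 (-0.48 to 0.49), KY, 0.15 (-0.43 to 0.72), GRIP2, 0.21 (-0.28 to 0.70), and IRF2, -0.07 (-0.37 to 0.22). Differences of up to these bounds are left possible, and doses of the 2 precursors were not the same.

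The genes with the smallest p between the diets were not those of the pooled comparison. BTG2, an antiproliferative gene, gave a log2 difference of -1.05 (95% interval -1.65 to -0.46), IP6K3, a muscle inositol phosphate kinase, -0.60 (-0.95 to -0.25), and ATOH8, a transcription factor of the bHLH family, -1.32 (-1.98 to -0.65), L-histidine below β-alanine in each. In ATOH8 the mean was 88.3 ± 28.9 (SD, n = 5) in control, 163 ± 67.1 in β-alanine and 65.5 ± 24.3 in L-histidine birds, so that the pooled log2 fold change was 0.37 (SE 0.38, or 0.64 without control birds 3 and 4). In the other direction TCF24, another bHLH factor, gave 1.80 (0.83 to 2.77), and PLN and ANKRD2 gave 6.06 and 6.38, both from L-histidine bird 2. None of these passed the adjustment over all genes.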

How the data were processed

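Total RNA of breast muscle was sequenced for 15 birds, 1 library a bird, from poly(A) libraries with paired reads. Trimming was with cutadapt 1.9.1, alignment to GRCg6a with HISAT2 2.0.1, and HTSeq 0.6.1 gave the deposited counts of fragments, as the authors state. They divided these by exonic length and library total to obtain the deposited FPKM. Chromosome numbers were assigned to the chromosome accessions of the table from the symbols on each, by a RefSeq gene table of GRCg7b, and positions are those of the table. The strand setting and the treatment of multiply mapped reads are not given in the sources used here. Depth was 10620229 to 15381547 counted fragments, and precision is limited by the number of birds.

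Genes whose deposited FPKM averaged 0.2 or more over the birds entered edgeR 4.0.16 (R 4.3.3), quasi-likelihood test, median-ratio (RLE) scaling and 13 residual degrees of freedom. The pool of both diets was set against control, and the contrast of the diets came from a fit with 3 groups. A call needed an adjusted p under 0.05 (Benjamini-Hochberg over all genes) and a fold change of at least 1.5. Normalized FPKM are the deposited counts divided by exonic length and by library size, taken as the summed counts of the genes tested times the RLE factor. Fold changes are log2, supplemented over control. Library measures used exact permutation over 3003 ways to choose 5 of 15 birds, for which the smallest p is 0.000333. Genes were named by rule: the 15 higher and 15 lower of smallest p whose 10 supplemented birds all lie to 1 side of the mean control level, up to 3 a list, CARNS1 and SLC6A6, 3 a direction between the diets, and the 3 largest changes a direction among genes without overlap. Further genes of the 40 without overlap and slow fibre genes were chosen after their values were seen. The members and the 22 gene and 10 marker lists were chosen with earlier results of these data known. P-values from edgeR set a difference between groups against the spread between birds. Those of the library measures rank the difference of means among all ways to choose the 5 birds. Alternatives were other scaling, filters, group models, robust fitting, DESeq2 1.42.0, limma 3.58.1 with voom, removal of the gene length trend, a replicate block, and leaving out birds. Code was tested on simulated data. Promoter motifs were not analysed here.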

Additional observations from a re-analysis of the deposited data

Results flagged for a closer look

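Of 220 groups of values examined, each the 5 control or the 10 supplemented birds in a named gene or a library measure, 37 had 1 bird far from the others of its group by Dixon's criterion, which chance gives in about 1 of 20 groups. Gene values are normalized FPKM.

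Control bird 4 was the extreme control in KY (128), PRKAB2 (344), HIST2H3D (1.30), SLC7A5 (82.5), MYOZ3 (732) and TNNC1 (19150), in its total count of 10620000 to 4 digits, in the share of its 10 and 100 most abundant genes (40.7 and 62.5%) and in the sum of muscle fibre markers (164100 to 4 digits). Control bird 3 was so in IRS2 (4.33) and ATOH8 (139), control bird 1 in NPC1 (9.15), TCF24 (0.0992) and the Schwann cell and nerve sum (58.6), control bird 2 in the macrophage sum (117) and control bird 5 in the adipocyte sum (395).

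L-histidine bird 2 was the extreme supplemented bird in CSRP3 (356), PLN (303), ANKRD2 (414), SLC6A6 (13.7), ABCG1 (1.66) and PHKA1 (245). Other L-histidine birds were so in G6PC3 (23.0, bird 3), TRIM24 (1.64, bird 3), CIART (9.59, bird 1), PERM1 (36.6, bird 4) and the adipocyte sum (242, bird 4).

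Among the β-alanine birds these were LPIN1 (25.3), CHADL (1.39) and PSMD4 (352) in bird 2, IRF2 (13.9) in bird 3, SLC25A25 (34.4) and SLC38A3 (12.8) in bird 4, PDE4D (5.67) and PPARGC1A (4.75) in bird 1, and the Schwann cell and nerve sum (69.2) in bird 5. The causes were not tested.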

How the results depend on the processing

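The number of called genes depended on the tool and on single birds. Nearly all named gene results kept their sign, which is no further evidence. Most of these genes were picked on their p-values in the same birds, and each alternative used all or most of those birds. The fit with all birds called 1 gene higher and 3 lower. It called 0 and 1 with 3 group means, 2 and 1 with total count scaling, 0 and 3 with robust fitting, 121 and 152 with DESeq2, 2 and 6 with the gene length trend removed, 0 and 1 without control birds 3 and 4, and 0 and 2 with both of the last changes (chosen after seeing the data). TMM scaling, no filter and a mean FPKM of at least 1 gave the same 4 genes, and voom added CNTFR. ASB2 was not called with 3 group means (adjusted p = 0.0509), robust fitting (0.0526) or the length trend removed (0.0594), GRIP2 and PPM1K were not with 3 group means (0.0509 each) or total count scaling (0.106 and 0.108), and none of the 4 was without control birds 3 and 4.

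Leaving out 1 bird gave 0 to 4 genes higher and 0 to 19 lower, with 19 lower and 3 higher without control bird 2 and 0 calls in 5 fits. In those fits the adjusted p of KY was 0.0599 without control bird 1, 0.0816 without control bird 4, 0.0602 and 0.0589 without β-alanine birds 1 and 5, and 0.056 without L-histidine bird 5. With the replicate block, 0 genes were higher and 0 lower (938 and 1249 at an unadjusted p under 0.05). The edgeR adjusted p was then 0.074 for KY, 0.0874 for ASB2, 0.0673 for GRIP2 and 0.074 for PPM1K. Cages hold 1 diet, so equal numbers do not mark a shared cage. Whether they mark another block is not stated in the sources used here. Birds of 1 number correlated at -0.233 to 0.246, with a mean of 0.027, against a mean of -0.00653 for birds of different numbers and groups. Of these pairs 5 of 15 were above 0.1 for equal numbers, and 5 of 15 birds were nearest to their own number.

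Genes without overlap numbered 64 with total count scaling (55 above, 9 below) and 130 without control birds 3 and 4 (72 and 58), against 40 (16 and 24). Of the 94 named gene results, 2 changed sign. HSPB1, at -0.80, was 0.049 without control birds 3 and 4 and 0.031 with the length trend also removed, and CARNS1, at -0.22, was 0.0102 with total count scaling. The causes were not tested. The comparison of the diets kept 0 calls in each alternative run. Motif counts were not run.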
